A study of Mus musculus with 18 samples.

Results

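Cathepsins are proteases found mostly in the lysosome. Here 10 cathepsin genes (Ctsa, Ctsb, Ctsc, Ctsd, Ctsh, Ctsk, Ctsl, Ctss, Ctsw and Ctsz) were examined in a cultured line of mouse kidney tubular epithelial cells. The cells were exposed to TGFβ, the main growth factor of kidney fibrosis. The genes were chosen by name, with earlier results of these data known. Their symbols were matched to the Ensembl identifiers of the count table through the GENCODE M21 annotation. All 10 were found among 55487 gene rows. A total of 6 (Ctsa, Ctsb, Ctsd, Ctsl, Ctsw and Ctsz) passed the filter on low counts and were tested, as were 13469 genes in all. The other 4 (Ctsc, Ctsh, Ctsk and Ctss) are given by their reads.

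The cells, named im-TEC, are conditionally immortalized: a large T antigen that interferon γ switches on drives their growth, and they were kept without interferon γ at a restrictive temperature before the experiment. The 6 groups were untreated control cells, cells with TGFβ at 10 ng/mL, cells with nicotinamide (NAM) at 1 mM, cells with TGFβ and NAM together, cells with S-adenosyl methionine (SAM) at 0.5 mM, and cells with TGFβ and SAM together. Exposure lasted 48 h, and each group had 3 libraries. The series concerns NNMT, the enzyme that moves a methyl group from SAM to NAM, so NAM and SAM are its substrates. The labels do not say whether the 3 libraries of a group came from separate cultures, so p-values measure the spread between these libraries, which may be technical.

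Most cathepsins are made as inactive precursors and carried to the lysosome, largely by mannose 6-phosphate receptors and sortilin-type receptors. There they are cut into their active forms. Cathepsin D is an aspartic protease. Cathepsin A is a serine carboxypeptidase that also shields the lysosomal enzymes β-galactosidase and neuraminidase 1 from breakdown. The others studied here are papain-type cysteine proteases. Among these, cathepsins B and L have a broad tissue range, cathepsin Z trims proteins from the carboxyl end, cathepsin H from the amino end, cathepsin C activates the granule proteases of leukocytes, cathepsin K degrades bone collagen in osteoclasts, cathepsin S processes the invariant chain in antigen-presenting cells, and cathepsin W is known from natural killer and cytotoxic T cells. In kidney tubule cells, lysosomal cathepsins break down the proteins that the cells take up from the filtrate.

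The libraries held between 4171170 and 7717626 reads assigned to genes, from a 3′ end protocol (QuantSeq) that yields about 1 read per transcript whatever its length. Levels are given in CPM, counts scaled to the library size with TMM factors, as mean ± SD of 3 libraries. Without molecular identifiers, reads are not independent molecules, and limits drawn from low counts cover counting error only. Changes are log2 fold changes ± SE from edgeR's quasi-likelihood test on all 18 libraries, and a gene is called changed where the adjusted p (Benjamini-Hochberg over all genes tested) is under 0.05. NAM library 3 and TGFβ with NAM library 1 stood apart by a low share of reads outside genes. The treatment tags of SAM libraries 2 and 3 conflict with their titles. The library codes of both SAM groups are not continuous with those of the other groups. A set of libraries and SAM therefore cannot be told apart. Fits without SAM libraries 2 and 3 were read for the cathepsins and for counts over all genes. Calls with SAM alone for other genes were not checked in this way. Of 17 tubular markers, 5 were at 0 reads in every library (among them Epcam, Hnf4a, Umod and Aqp2), whereas Pax8, Pax2, Cdh16, Aqp1, Lrp2 and Krt8 were present. The summed level of the 17 markers was 1942 to 2029 CPM in control libraries and 817 to 903 CPM with TGFβ. Aqp1 alone went from 1031 ± 49.2 to 106 ± 21.3 CPM. The 8 markers tested had a median log2 change of -0.42, with 1 called higher and 5 lower, where 9.7% of all genes were higher and 9.74% lower. In RNA from whole cultures, fewer cells of a type and less RNA per cell cannot be told apart.

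TGFβ moved the tested cathepsins in opposite directions. Ctsw and Ctsl rose, Ctsa and Ctsd fell, Ctsb lay at the edge of the threshold and Ctsz was not called. Without a supplement, 2 of the 6 were higher and 2 lower, where 19.4% of all genes tested were called in either direction (9.7% higher, 9.74% lower). Next to NAM, 2 were higher and 3 lower against 21.9% of all genes called (10.9% higher, 11% lower), and next to SAM 2 were higher and 3 lower against 28.4% (14.2% in each direction). The median log2 change of the 6 was -0.29 without a supplement, -0.29 with NAM and -0.36 with SAM, and the median of all genes tested lay within 0.01 of 0 in each comparison. These 3 comparisons have no library in common. Ctsw passed the low-count filter only through its libraries with TGFβ, where it is high. Its place among the genes called higher is therefore not independent of that filter.

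**Figure D1:**
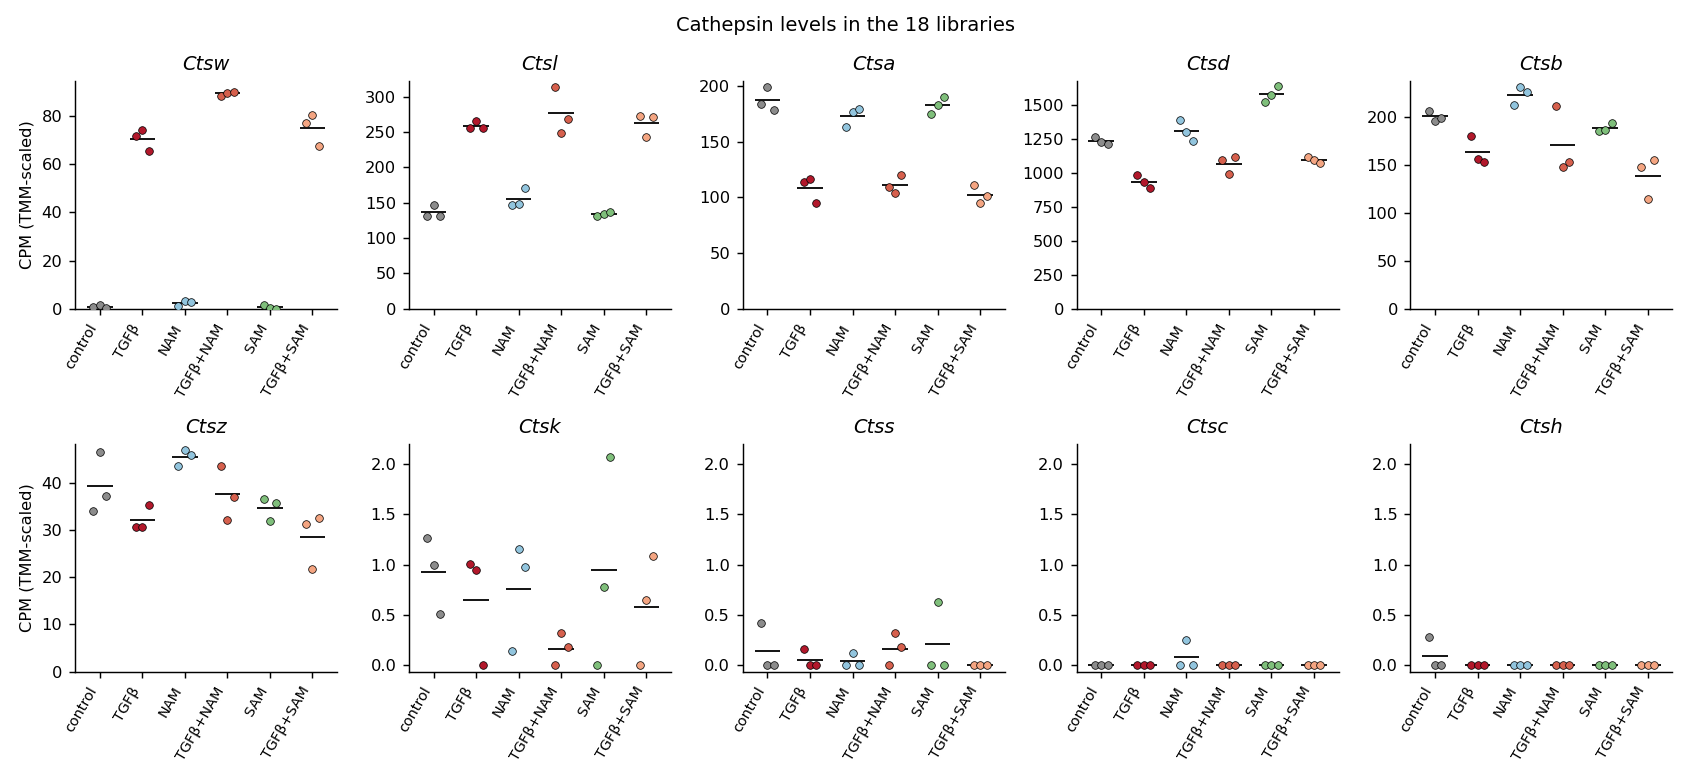
Level of each of the 10 cathepsins (vertical axes, CPM, each gene on its own linear scale) in the 6 groups (horizontal axes). Points are single libraries and bars are the means of 3. Ctsw lies between 0 and 3.34 CPM in every library without TGFβ and between 65.4 and 89.9 CPM in every library with it.

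**Figure D2:**
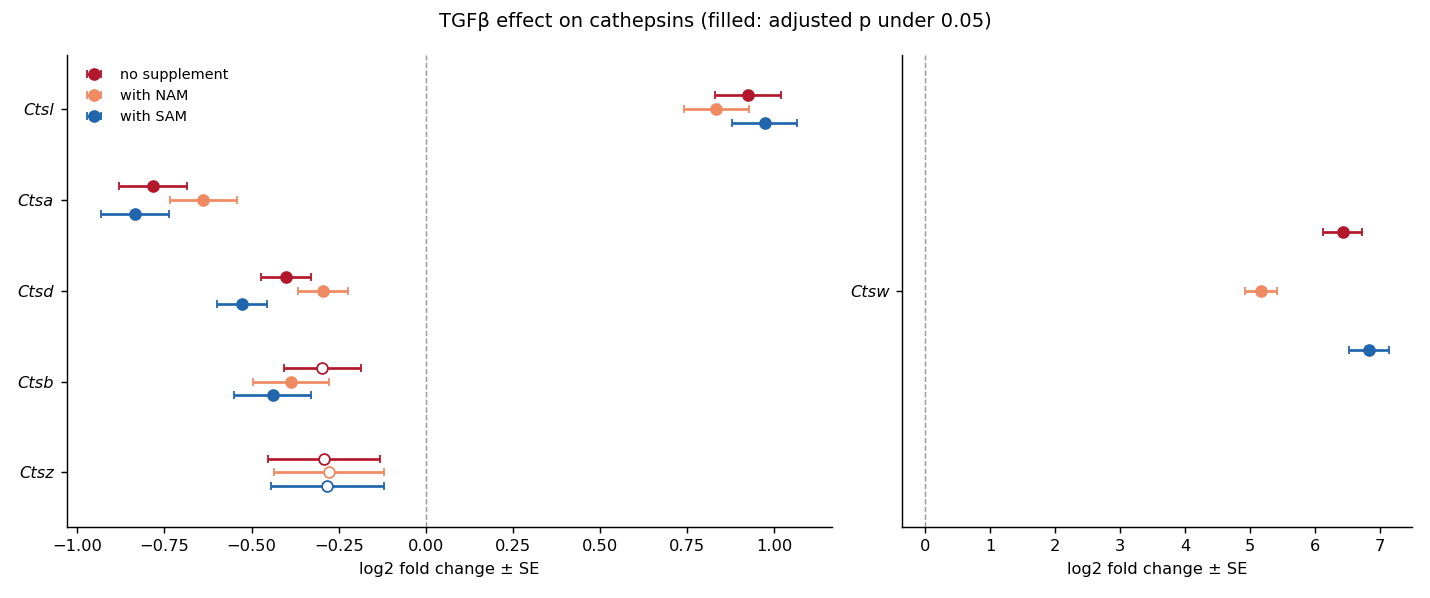
Effect of TGFβ on the 6 tested cathepsins (log2 fold change ± SE) without a supplement, with NAM and with SAM. Filled points have an adjusted p under 0.05, and Ctsw has an axis of its own because its change (6.43, 5.17 and 6.83) is several times larger than that of the others.

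Ctsw (ENSMUSG00000024910, chr19:5465043-5468507, minus strand, GRCm38) went from near the detection limit to a moderate level. Control libraries 1 to 3 held 0.564, 1.43 and 0.338 CPM, from 4, 10 and 2 reads. The TGFβ libraries held 71.4, 74.2 and 65.4 CPM. Thus all 3 TGFβ libraries were far above all 3 controls. The log2 change was 6.43 ± 0.30 (86.1-fold, adjusted p = 1.92e-20). Since the control mean rests on few reads, the size of the fold depends on them: without control library 2 the log2 change was 7.20.

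The same switch was present beside each supplement. With NAM alone Ctsw stood at 1.31, 3.34 and 2.65 CPM, and with TGFβ and NAM at 88.3, 89.6 and 89.9 CPM. The rise was 5.17 ± 0.24 on the log2 scale (35.9-fold, adjusted p = 3.41e-20), with no overlap between the groups. With SAM alone the libraries held 1.52, 0.313 and 0 CPM, and with TGFβ and SAM 77.1, 80.1 and 67.5 CPM. That rise was 6.83 ± 0.31 (114-fold, adjusted p = 4.36e-21), again with no overlap. The SAM baseline is as thin as that of the controls: the log2 change was 8.68 without SAM library 1, and 5.61 (adjusted p = 5.45e-15) without SAM libraries 2 and 3. Ordered by log2 change from the top, Ctsw was gene 9, 23 and 15 of 13469 without a supplement, with NAM and with SAM.

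From high to low, the group means of Ctsw were 89.2 ± 0.842 CPM (TGFβ with NAM), 74.9 ± 6.57 (TGFβ with SAM), 70.3 ± 4.51 (TGFβ), 2.43 ± 1.03 (NAM), 0.777 ± 0.576 (control) and 0.610 ± 0.802 (SAM). Only the step between the groups with and without TGFβ was called. Among the 3 groups with TGFβ, all libraries with NAM lay above all others, and the difference between TGFβ with NAM and TGFβ alone was 0.34 ± 0.17 (interval -0.01 to 0.69, adjusted p = 0.738). TGFβ with SAM against TGFβ with NAM gave -0.25 ± 0.17 (adjusted p = 0.435), also without overlap. NAM against control gave 1.60 ± 0.46 (interval 0.68 to 2.52, adjusted p = 0.531), with overlapping libraries, and 2.37 without control library 2. SAM against control gave -0.32 ± 0.63 (adjusted p = 0.811), 0.45 without control library 2 and -2.16 without SAM library 1. At 0 to 26 reads a library, the counts in cells without TGFβ do not order these 3 groups. The effect of TGFβ on Ctsw differed between NAM and no supplement by -1.26 ± 0.49 (interval -2.26 to -0.26, adjusted p = 0.999984, unadjusted p = 0.0144), a difference that was -2.03 without control library 2. Between SAM and no supplement it differed by 0.40 ± 0.65 (adjusted p = 0.895), with values of -0.37 without control library 2 and 2.25 without SAM library 1.

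Cathepsin W is a lymphocyte protein, so the markers of those cells were read from the same libraries. Of 15 markers of cytotoxic lymphocytes, 9 were at 0 reads in all 18 libraries. Among them were the CD3 chains Cd3e, Cd3d and Cd3g, the co-receptor chains Cd8a and Cd8b1, and the natural killer receptors Klrb1c and Ncr1. The 15 markers had 65 reads in all libraries together, against 4163 reads of Ctsw. These came from Il2rb (30), Ptprc (14), Trbc1 (10), Nkg7 (6), Lck (4) and Klrd1 (1). Of the 65 marker reads, 33 were in the libraries with TGFβ and NAM, the group with the highest Ctsw. Their summed level was 0 to 0.705 CPM in control libraries, 0 to 1.18 with TGFβ, 0.139 to 0.580 with NAM, 1.42 to 2.51 with TGFβ and NAM, 0 to 0.456 with SAM, and 0 to 0.652 with TGFβ and SAM. Of 11 granule proteases, 10 were at 0 reads, and Gzmm had 31 reads. In the libraries where Ctsw was high, the summed level of the 15 markers was at most 2.51 CPM. A lymphocyte source of Ctsw was not tested.

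The genes around Ctsw were read in the same test. Of 17 annotated genes within 50 kb, 11 were tested, and 1 was called higher and 1 lower with TGFβ, where 19.4% of all genes tested were called. Cfl1, which encodes the actin-severing protein cofilin, rose by 0.36 ± 0.08 (adjusted p = 0.000692), by 0.38 with NAM (0.000399) and by 0.56 with SAM (3.98e-07). Snx32, a sorting nexin gene that overlaps Cfl1 on the opposite strand, fell by 1.47 on the log2 scale (SE 0.35, adjusted p = 0.00147). Its values with NAM and SAM, -0.54 (adjusted p = 0.272) and -0.30 (0.565), did not pass. Fibp overlaps the end of Ctsw by 9 bases on the opposite strand, and without the strand setting of the counting, reads in those bases cannot be told apart. Its log2 change was -0.18 ± 0.13 (adjusted p = 0.358). The other 8 tested neighbours (Drap1, AI837181, AC122861.1, Fosl1, Ccdc85b, Efemp2, Mus81 and Gm31166) had log2 changes from -0.22 to 0.22, none of them called.

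**Figure D3:**
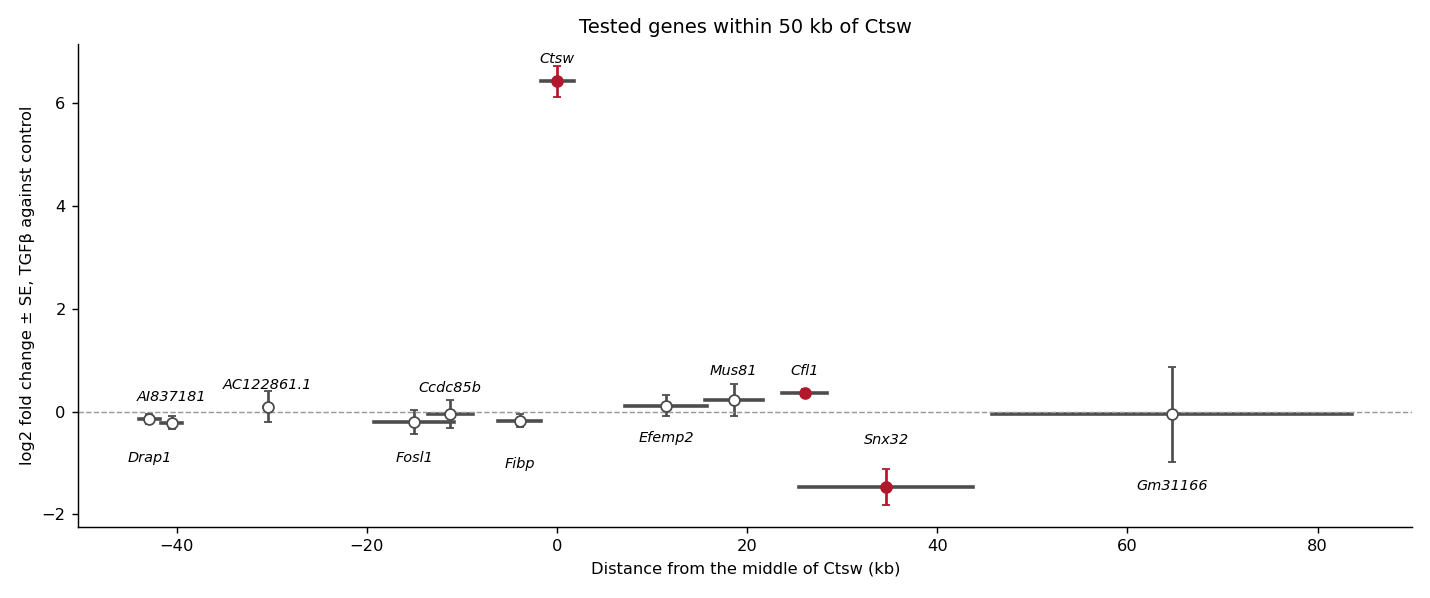
Log2 fold change ± SE of TGFβ against control (vertical axis) for Ctsw and its 11 tested neighbours, by distance from the middle of Ctsw in kb (horizontal axis). Horizontal bars show the extent of each gene and filled points have an adjusted p under 0.05. Ctsw stands at 6.43, Cfl1 at 0.36 and Snx32 at -1.47.

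Around the other 5 tested cathepsins, neighbours within 50 kb were called as follows without a supplement: 2 of 7 lower near Ctsa, 0 of 1 near Ctsb, 1 of 2 higher near Ctsd, 0 of 1 near Ctsl, and 1 higher and 1 lower of 3 near Ctsz, with 19.4% of all genes called. Ctsk and Ctss lie 17423 bases apart on chromosome 3. Ctsf, whose product is closely related to cathepsin W, lies 604 kb from it on chromosome 19.

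Among the genes whose pattern was most like that of Ctsw over the 6 group means, by the root mean square difference of centred log2 CPM, were Acta1 (0.595), Adam12 (0.750), Il1rl1 (0.921) and Actg2 (0.937). Acta1 and Actg2 encode skeletal and enteric actin, Adam12 a membrane metalloprotease, and Il1rl1 the receptor of interleukin 33. Since they were picked for following Ctsw over these groups, their differences between TGFβ and control, 4.47, 5.28, 3.87 and 4.54 on the log2 scale in that order, are a description with no test. Actin genes are alike in their coding sequence, and how reads shared between them were counted is not given. The values of Acta1 and Actg2 are therefore uncertain. With TGFβ and SAM, Adam12 stood at 31.4 ± 6.90 CPM and Il1rl1 at 46.7 ± 4.13 CPM. With SAM alone these 2 genes stood at 0.596 ± 0.231 and 0.685 ± 0.625 CPM.

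Ctsl (ENSMUSG00000021477, chr13:64359337-64370890, minus strand), whose product is a broad endopeptidase of the lysosome, was the other cathepsin that rose. Control libraries held 131, 147 and 132 CPM and TGFβ libraries 255, 266 and 256 CPM. The lowest TGFβ library lay well above the highest control. The log2 change was 0.92 ± 0.09 (adjusted p = 2.58e-10). With NAM, the level went from 147, 148 and 171 CPM to 313, 248 and 268 CPM. The change was 0.83 ± 0.09 (adjusted p = 2.18e-09). With SAM, it went from 131, 135 and 137 CPM to 273, 244 and 272 CPM, a change of 0.97 ± 0.09 (adjusted p = 3.85e-11). In none of the 3 comparisons did the groups overlap, and Ctsl was called under every alternative setting tried. From high to low the group means were 276 ± 33.2 (TGFβ with NAM), 263 ± 16.8 (TGFβ with SAM), 259 ± 5.78 (TGFβ), 155 ± 13.7 (NAM), 136 ± 9.26 (control) and 134 ± 3.02 CPM (SAM). Within the groups with TGFβ and within those without it, neighbours in this order overlapped.

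Ctsa (ENSMUSG00000017760, chr2:164832873-164841032, plus strand), the protective carboxypeptidase, went the opposite way. It stood at 183, 199 and 178 CPM in control libraries and at 114, 116 and 95.3 CPM with TGFβ. No TGFβ library reached the lowest control. The log2 change was -0.78 ± 0.10 (adjusted p = 3.31e-08). With NAM it went from 163, 176 and 179 to 109, 104 and 120 CPM (log2 change -0.64 ± 0.10, adjusted p = 1.73e-06). With SAM it went from 174, 183 and 191 to 111, 95.4 and 101 CPM (-0.83 ± 0.10, adjusted p = 4.39e-09). The groups did not overlap in any of these comparisons. The group means ran from 187 ± 10.9 (control) through 183 ± 8.02 (SAM) and 173 ± 8.36 (NAM) to 111 ± 8.31 (TGFβ with NAM), 108 ± 11.4 (TGFβ) and 103 ± 7.92 CPM (TGFβ with SAM). Within the 3 groups with TGFβ and the 3 without it, neighbours in this order overlapped.

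Ctsd (ENSMUSG00000007891, chr7:142375911-142388038, minus strand), the aspartic protease, had the most reads of the 10, with 137007 of the 205067 reads they held together. Control libraries held 1264, 1229 and 1217 CPM, and TGFβ libraries 986, 935 and 888 CPM. All 3 treated libraries were below all controls. The fall was -0.40 ± 0.07 on the log2 scale (adjusted p = 4.34e-05). With NAM, 1394, 1304 and 1235 CPM became 1094, 995 and 1116 CPM (-0.30 ± 0.07, adjusted p = 0.00199). With SAM, 1524, 1578 and 1640 CPM became 1119, 1094 and 1077 CPM (-0.53 ± 0.07, adjusted p = 1.78e-07). Again no groups overlapped. From high to low the group means were 1581 ± 57.9 (SAM), 1311 ± 79.8 (NAM), 1237 ± 24.7 (control), 1097 ± 20.9 (TGFβ with SAM), 1068 ± 64.5 (TGFβ with NAM) and 936 ± 49.2 CPM (TGFβ). NAM and control overlapped, as did TGFβ with SAM and TGFβ with NAM, and the other neighbours in this order did not.

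Ctsd was the cathepsin for which a supplement passed the test. With SAM alone it was higher than in control cells by 0.35 ± 0.07 (adjusted p = 0.000607), and the lowest SAM library lay above the highest control. It was 1 of 6 tested cathepsins called in that comparison, where 11.8% of all genes tested were called (5.02% higher, 6.79% lower). Without SAM libraries 2 and 3, whose tags conflict with their titles, the value was 0.30 (adjusted p = 0.126). On top of TGFβ, SAM gave 0.23 ± 0.07 (adjusted p = 0.0460), again as 1 of 6 cathepsins, with 7.32% of all genes called (3.07% higher, 4.25% lower) and no overlap between the groups. That call was lost without any 1 of the 6 libraries, with adjusted p from 0.0565 to 0.188. NAM on top of TGFβ gave 0.19 ± 0.07 (adjusted p = 0.525), also without overlap.

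Regulators of lysosomal genes such as TFEB bind a motif built around the letters CACGTG, so the starts of the cathepsin genes were searched for it. Windows from 250 bases before to 50 after the annotated start were taken from RefSeq (GRCm38.p6). A total of 7 of the 10 genes were matched, with 8 windows (Ctsa has a pair), and Ctsb, Ctsh and Ctsw were not. CACGTG, which reads the same on both strands, was in 7.15% of 32851 mouse promoter windows of this length, and in 0.594% at least 2 times. It was found 2 times in a Ctsa window, 2 times in the Ctsd window and 1 time in the Ctsl window, and not in the windows of Ctsc, Ctsk, Ctss and Ctsz. Counted from the RefSeq start, the matches began at -12 and 5 in Ctsa, at -245 and -98 in Ctsd and at -236 in Ctsl. The stretches of 30 bases below hold these matches in capitals, 5′ to 3′ on the strand of the gene. They are shown because these are the 3 genes called with TGFβ for which a window was given, 2 of them lower and 1 higher. The Ctsa stretch (chr2:164833757-164833786, plus strand) lies in an annotated UTR of Ctsa, the Ctsd distal stretch (chr7:142388048-142388077, minus strand) outside any exon, and the Ctsd proximal stretch (chr7:142387908-142387937, minus strand) and Ctsl stretch (chr13:64370739-64370768, minus strand) in UTRs of their genes.
Ctsa: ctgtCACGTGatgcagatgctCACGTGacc
Ctsd distal: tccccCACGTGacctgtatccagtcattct
Ctsd proximal: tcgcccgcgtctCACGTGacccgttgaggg
Ctsl: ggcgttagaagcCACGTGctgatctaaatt

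Other letters were searched in the same windows, on both strands. CAGAC, the core that SMAD proteins bind, was in the other Ctsa window, in those of Ctsk and Ctsl, and 2 times in that of Ctsz, against 49.6% of all windows. TGANTCA, the AP-1 motif (7.81% of all windows), and GGAATG, the TEAD motif (14.7%), were in none of the 8. No CACGTG or CAGAC match overlapped another. A match of letters is a description of the sequence, and Ctsl, which holds CACGTG, went up with TGFβ while Ctsa and Ctsd went down.

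Ctsb (ENSMUSG00000021939, chr14:63122462-63145923, plus strand), an endopeptidase that can also trim dipeptides, lay at the limit of the test. Controls stood at 207, 196 and 199 CPM and TGFβ libraries at 180, 156 and 153 CPM, with no overlap. The log2 difference was -0.30 ± 0.11 (adjusted p = 0.0509, interval -0.52 to -0.08), which missed the threshold; it was called under 6 of 12 alternative settings, with adjusted p down to 0.00576. With NAM it went from 213, 232 and 226 to 212, 148 and 153 CPM and was called lower (-0.39 ± 0.11, adjusted p = 0.00720), although TGFβ with NAM library 1 lay close to the NAM libraries. Without TGFβ with NAM library 2 or 3 the call was lost (adjusted p = 0.0865 and 0.0664). With SAM it went from 186, 186 and 194 to 147, 115 and 155 CPM (-0.44 ± 0.11, adjusted p = 0.00198), a call lost without SAM libraries 2 and 3 (adjusted p = 0.0693). The group means ran from 223 ± 9.79 (NAM), 201 ± 5.46 (control) and 188 ± 4.49 (SAM) to 171 ± 35.6 (TGFβ with NAM), 163 ± 14.8 (TGFβ) and 139 ± 21.5 CPM (TGFβ with SAM). NAM, control and SAM did not overlap each other, the later neighbours did, and neither supplement was called for Ctsb.

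Ctsz (ENSMUSG00000016256, chr2:174427493-174439039, minus strand) gave no call. It held 34.1, 46.6 and 37.2 CPM in controls and 30.7, 30.6 and 35.4 CPM with TGFβ, so the groups overlapped. The log2 difference was -0.29 ± 0.16 (interval -0.62 to 0.03, adjusted p = 0.228). It was -0.28 with NAM (adjusted p = 0.226) and -0.28 with SAM (0.207), with overlap in both. These intervals include a fall as large as that of Ctsd, so a change of that size could not be told from none at this depth. From high to low the group means were 45.5 ± 1.79 (NAM), 39.3 ± 6.52 (control), 37.5 ± 5.80 (TGFβ with NAM), 34.7 ± 2.50 (SAM), 32.2 ± 2.73 (TGFβ) and 28.5 ± 5.97 CPM (TGFβ with SAM). Every neighbour in this order overlapped the next.

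The remaining 4 cathepsins were close to 0 in these cells. Ctsk (ENSMUSG00000028111, chr3:95499256-95509362, plus strand) had 79 reads over 14 of 18 libraries, with 19 in controls, 12 with TGFβ, 17 with NAM, 3 with TGFβ and NAM, 17 with SAM and 11 with TGFβ and SAM. No library exceeded 2.07 CPM. Ctss (ENSMUSG00000038642, chr3:95526786-95556403, plus strand) had 12 reads in 6 libraries. Ctsc (ENSMUSG00000030560, chr7:88278085-88310888, plus strand) and Ctsh (ENSMUSG00000032359, chr9:90054152-90076089, plus strand) had 2 reads each, all in 1 library. In a fit without the low-count filter none of these 4 was called in the comparisons of TGFβ, with adjusted p of at least 0.398. For a group of 3 libraries, 3 counts correspond to 0.137 to 0.183 CPM. This was taken as the upper limit for a count of 0. It covers counting error only, so a higher mean remains possible.

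The cathepsins outside the 10 were mostly without reads. Of 12 further cathepsin genes, 10 had no read. Ctso, tested, was not called in any comparison (-0.46 ± 0.30 with TGFβ, adjusted p = 0.323). Ctsf, a close relative of Ctsw, had 0 reads in all 9 libraries without TGFβ. It had 5, 8 and 5 reads with TGFβ, 2, 5 and 4 with TGFβ and NAM, and 15, 6 and 4 with TGFβ and SAM. Every library with TGFβ thus held Ctsf reads and no other library did. The observed level was set against a floor of 3 counts over the matching group without TGFβ. It was 7.33-fold that floor with TGFβ, 4.59-fold with TGFβ and NAM, and 8.59-fold with TGFβ and SAM. These ratios leave out the counting error of the few reads with TGFβ, so they are not lower limits. Ctsf did not pass the low-count filter. In the edgeR fit without it, its adjusted p was 0.0387, 0.0772 and 0.0195 in that order.

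The supplements gave few calls among the cathepsins. NAM against control called 0 of the 6, where 0.00742% of all genes, that is 1 gene, was called. NAM on top of TGFβ called 0 of 6 against 0.0817% of all genes (0.0297% higher, 0.052% lower), and TGFβ with SAM against TGFβ with NAM 0 of 6 against 8.14% (3.68% higher, 4.47% lower). Neither interaction with TGFβ called a cathepsin, with 0% of genes for NAM (462 genes at an unadjusted p under 0.05) and 1.43% for SAM (0.802% higher, 0.631% lower). The intervals of NAM against control were -0.06 to 0.23 for Ctsd, -0.30 to 0.08 for Ctsa, -0.0044 to 0.37 for Ctsl, -0.06 to 0.37 for Ctsb, -0.10 to 0.52 for Ctsz and, as above, 0.68 to 2.52 for Ctsw. The last is unadjusted and lies above 0, while the adjusted p of Ctsw was 0.531. With SAM, Ctsd was called as described. For SAM on top of TGFβ, Ctsb gave an unadjusted interval of -0.46 to -0.01, with overlapping libraries and an adjusted p of 0.227. Comparisons with a group in common, such as NAM and SAM each against control, share its libraries and are not independent. The summed level of the 10 genes, set mostly by Ctsd, was 1765 to 1822 CPM in controls, 1493 to 1639 with TGFβ, 1860 to 1961 with NAM, 1617 to 1860 with TGFβ and NAM, 2053 to 2198 with SAM, and 1650 to 1759 with TGFβ and SAM.

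**Figure D4:**
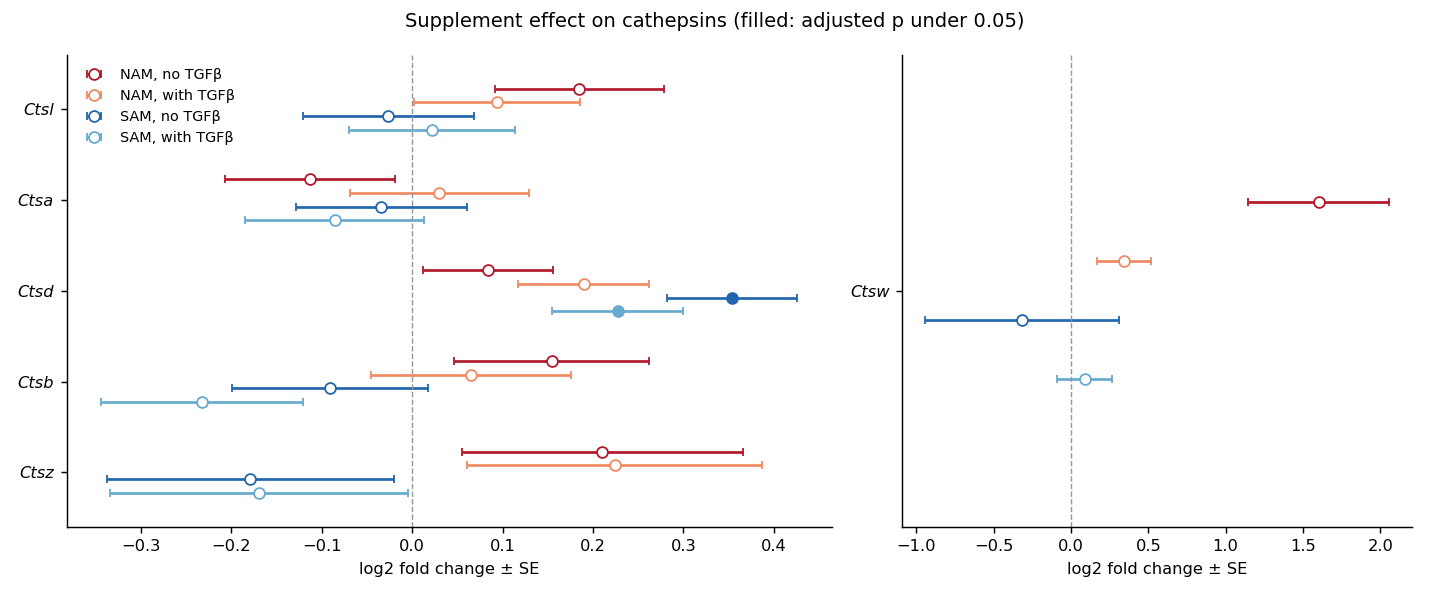
Effect of NAM and of SAM on the 6 tested cathepsins without and with TGFβ (log2 fold change ± SE). Filled points have an adjusted p under 0.05: Ctsd with SAM, at 0.35 without TGFβ and 0.23 with it.

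The inhibitors of cathepsins were read beside them. Of 19 matched inhibitor genes, 8 had reads and 3 were tested. Ctla2a, whose product resembles the propeptide of cysteine cathepsins and inhibits cathepsin L, rose with Ctsl. Control libraries held 7.89, 6.43 and 3.21 CPM and TGFβ libraries 36.7, 31.0 and 32.9 CPM, a log2 change of 2.50 ± 0.29 (adjusted p = 8.09e-09) with no overlap. With NAM the change was 3.24 ± 0.31 (adjusted p = 5.30e-11), and with SAM 4.36 ± 0.39 (adjusted p = 6.15e-12). Ctla2a was lower with SAM alone, at 1.37, 0.938 and 0.345 CPM (-2.69 ± 0.43 against control, adjusted p = 1.82e-05), and on top of TGFβ the difference was -0.83 ± 0.27 (adjusted p = 0.0473). Cst3, the secreted inhibitor cystatin C, fell from 278, 287 and 287 CPM to 162, 165 and 167 CPM (-0.78 ± 0.10, adjusted p = 4.38e-08), by 0.83 on the log2 scale with NAM (adjusted p = 9.02e-09) and by 0.75 with SAM (adjusted p = 6.59e-08). Cstb, a cytosolic inhibitor, had a log2 change of 0.08 (adjusted p = 0.608), 0.15 (0.256) and 0.24 ± 0.09 (0.0462) in the same order.

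Receptors and enzymes that carry and mature cathepsins were read next. Of 18 such genes, all tested, 0 were higher and 3 lower with TGFβ, where 9.7% of all genes were higher and 9.74% lower, and their median log2 change was 0.06. Sorl1, a sortilin-type receptor, went from 123, 113 and 111 CPM to 48.2, 53.1 and 50.4 CPM (-1.20 ± 0.11, adjusted p = 1.20e-11), and Igf2r, the large mannose 6-phosphate receptor, from 44.8, 45.9 and 58.8 CPM to 29.3, 21.7 and 22.1 CPM (-1.02 ± 0.17, adjusted p = 8.46e-06). Both fell with NAM (-1.23 and -0.85) and with SAM (-1.41 and -1.18) as well. Sort1, sortilin, was called at -0.49 (adjusted p = 0.0470) with overlapping libraries. With NAM 2 were higher and 2 lower (10.9% and 11% of all genes), and with SAM 4 were higher and 2 lower (14.2% each). Nagpa, which uncovers the mannose 6-phosphate tag, rose by 0.52 and 0.64, and M6pr, the small mannose 6-phosphate receptor, by 0.41 and 0.38. Psap, the saposin precursor, rose by 0.33 with SAM. With SAM alone Sorl1 was higher than in controls (0.87, adjusted p = 2.47e-08), as was Gga2, an adaptor of the receptors (0.48), while Lgmn, legumain, which cleaves cathepsins into chains, was lower (-0.48, adjusted p = 0.0200).

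Other lysosomal enzymes were counted in the same way. Of 35 tested hydrolases outside the cathepsins, 0 were higher and 8 lower with TGFβ, 1 higher and 8 lower with NAM, and 4 higher and 11 lower with SAM. The shares of all genes called higher and lower were 9.7% and 9.74%, 10.9% and 11%, and 14.2% each. Their median log2 changes were -0.16, -0.23 and -0.25. Sgsh, a heparan sulfate sulfatase, went from 14.9, 22.4 and 19.1 CPM to 1.52, 7.23 and 3.19 CPM (-2.20, adjusted p = 2.61e-05), and fell by 2.16 with NAM and by 2.84 with SAM. Gaa, acid α-glucosidase, fell by 0.95 (adjusted p = 2.42e-05) and by 1.22 with NAM. Manba, β-mannosidase, fell by 0.84 (adjusted p = 4.90e-05) and by 1.06 with SAM. Neu1, the neuraminidase that cathepsin A shields, fell by 0.57 with SAM (adjusted p = 0.000152), and Galc by 0.86 with NAM. Hyal1, a hyaluronidase, rose by 0.62 with NAM and by 0.81 with SAM, and Gusb and Aga rose by 0.54 and 0.37 with SAM. As Ctsd did, Tpp1, a lysosomal tripeptidyl peptidase, rose with SAM alone (0.48, adjusted p = 0.000226), followed by Smpd1 (0.41) and Hexa (0.32). Thus 3 were higher and 0 lower, where 5.02% of all genes were higher and 6.79% lower. These calls were not read without SAM libraries 2 and 3.

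Genes of the lysosomal membrane, its proton pump and the TFEB family were 2 higher and 9 lower of 28 tested with TGFβ, 3 and 9 with NAM, and 3 and 15 with SAM, with medians of -0.20, -0.19 and -0.35. In these comparisons 19.4%, 21.9% and 28.4% of all genes were called. Npc2, the lumenal cholesterol carrier, rose from 366, 403 and 364 CPM to 588, 627 and 584 CPM (0.67, adjusted p = 4.33e-08), and the pump subunit Atp6v1g1 by 0.80 (adjusted p = 0.00120). Cd63, a membrane tetraspanin, rose by 0.28 with NAM and by 0.40 with SAM. The pump subunits Atp6v1b2 and Atp6v0a1 fell by 0.53 and 0.62, and Sqstm1, an autophagy receptor, by 0.35. Mitf, Tfeb and Tfe3, chosen here after their values were seen because they are the regulators in the list, were called lower with TGFβ by 1.59, 1.18 and 0.46 on the log2 scale. Their levels are low: Tfeb stood at 15.6, 12.9 and 13.5 CPM in controls and at 4.38, 7.70 and 6.39 CPM with TGFβ. SAM alone called 1 gene of this list, Ctns, the cystine carrier (0.60, adjusted p = 0.0296), where 11.8% of all genes were called.

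**Figure D5:**
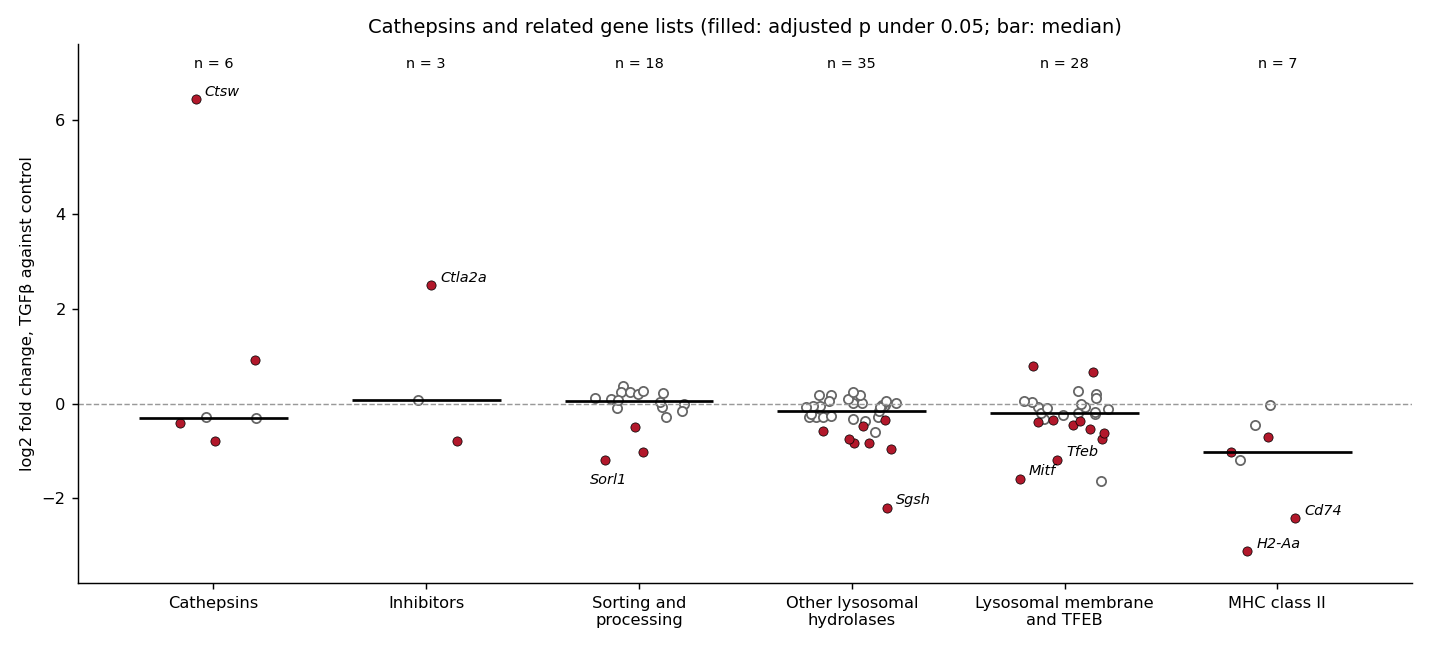
Log2 fold change of TGFβ against control (vertical axis) for the tested genes of 6 lists (horizontal axis): cathepsins, their inhibitors, sorting and processing, other hydrolases, membrane and TFEB, and MHC class II. Points are genes, filled where the adjusted p is under 0.05, and bars are medians. The cathepsins span from -0.78 for Ctsa to 6.43 for Ctsw around a median of -0.29.

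Cathepsins L and S process the invariant chain of MHC class II. Of 7 genes of that pathway tested, 0 were higher and 4 lower with TGFβ, 4 lower with NAM and 5 lower with SAM, where 9.74%, 11% and 14.2% of all genes were lower. H2-DMb1, a chain of the peptide loader, had log2 changes of -0.02 with TGFβ alone (adjusted p = 0.960), 0.33 with NAM (adjusted p = 0.148) and 0.21 with SAM (adjusted p = 0.365). Cd74, the invariant chain, went from 80.8, 84.9 and 82.1 CPM to 13.3, 13 and 20.6 CPM (-2.43, adjusted p = 1.14e-14). H2-Aa, H2-Eb1 and H2-Ab1, chains of the class II molecules, fell by 3.12, 1.02 and 0.71. These genes were named after their values were seen. H2-Eb1 was higher with SAM alone by 1.20 (adjusted p = 1.48e-11).

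Markers of other cells that hold cathepsins were also read. Of 12 macrophage markers, 6 were at 0 reads, and the sum was 102 to 104 CPM in controls and 56.0 to 73.5 CPM with TGFβ. Most of it was Csf1r, with 8195 of 9873 reads. Osteoclast markers (8, with 2 at 0) summed to 32.6 to 33.3 CPM in controls and 50.3 to 53.1 CPM with TGFβ. Most of this was Nfatc1, with 4120 of 5424 reads. Oscar and Dcstamp had 4 and 7 reads in all libraries, and Atp6v0d2 went against the sum, from 14 reads in controls to 0 with TGFβ. Fibroblast markers (8, with 2 at 0) summed to 6.72 to 8.61 CPM in controls and 125 to 135 CPM with TGFβ, mostly Col1a1. The part of these shifts in the changes of Ctsl, Ctsa and Ctsd was not tested.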

How the data were processed

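RNA of 18 im-TEC libraries (6 groups of 3) was read as deposited raw counts per gene, which the authors made from QuantSeq 3′ FWD libraries with STAR and HTSeq, per the submitters' processing notes. Those notes name GRCh38, while the identifiers are mouse Ensembl genes, so the build used for alignment is unsettled; versions and the strand setting are not given in the sources used here. Symbols and GRCm38 positions came from GENCODE M21 by identifier (55227 of 55487 rows matched). Summary rows were left out of library sizes: reads outside genes made up 22.8 to 28.2% and ambiguous reads 0.607 to 0.779%.

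Counts were TMM-scaled, filtered with filterByExpr (minimum count 10, 13469 genes kept) and tested with edgeR 4.0.16 (R 4.3.3) in 1 quasi-likelihood fit of all libraries, with 8 group comparisons and 2 interactions, at an adjusted p under 0.05. Standard errors are the size of the log2 change over the square root of F, and the intervals are 95% intervals from them. Log2 CPM used a prior count of 2. The scripts were tested on simulated data. Alternatives were DESeq2 1.42.0, its type of size factors in edgeR, no low-count filter, a replicate block, only the compared groups in the fit, and leaving out single libraries, the 2 that stand apart or SAM libraries 2 and 3. With 3 against 3 libraries an exact permutation test cannot go below 0.1.

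The cathepsins and the gene lists were chosen with earlier results of these data known. Named genes were the cathepsins, their inhibitors, the tested neighbours of Ctsw, the 5 genes most like it (1 is not reported here), and up to 3 per direction and comparison from the lysosomal lists.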

Additional observations from a re-analysis of the deposited data

Results flagged for a closer look

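Among the genes named above for a pattern like that of Ctsw, 2 responded to TGFβ by a different amount with SAM than without a supplement, by the edgeR test of that difference. They were picked on the same group means, so the values are not independent of that choice. The rise was larger with SAM by 2.17 on the log2 scale for Il1rl1 (adjusted p = 0.0180) and by 1.68 for Acta1 (adjusted p = 6.86e-05). In both the mean level with SAM alone was below that of the controls, with overlapping libraries for Il1rl1: 0.685 ± 0.625 against 2.71 ± 1.33 CPM for Il1rl1 and 3.91 ± 0.640 against 9.66 ± 0.439 CPM for Acta1 (n = 3 each). Il1rl1 had 13 reads over the 3 SAM libraries, with 2 to 9 a library. The tags of SAM libraries 2 and 3 conflict with their titles, and neither gene was read in a fit without them. For Ctsw itself the TGFβ response with SAM differed from that without a supplement by 0.40 ± 0.65 (adjusted p = 0.895).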

How the results depend on the processing

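Of the alternatives planned for each result, 989 values kept their direction and side of the threshold (counts within 1.5 times), 13 lost and 8 gained a call, and 31 counts moved. Another 37 values, all of cathepsins not called in that comparison, changed sign and are listed last. Leaving out 1 library at a time gave 4 to 5 cathepsins called for TGFβ against control, 4 to 5 with NAM and 5 to 5 with SAM, and log2 changes of Ctsw of 6.11 to 7.20, 4.89 to 5.48 and 6.31 to 8.68. SAM against control kept 1 call in each of these and gave 0 without SAM libraries 2 and 3. TGFβ with SAM against TGFβ gave 0 calls without the low-count filter, with the replicate block, with only the compared groups fitted, and 0 to 0 when a library was left out. TGFβ with SAM against TGFβ with NAM gave 0 to 1 when a library was left out: Ctsb reached an adjusted p of 0.0353 without TGFβ with NAM library 2 and 0.0362 without TGFβ with SAM library 3.

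Some counts over all genes moved over 1.5 times. Without SAM libraries 2 and 3, those of TGFβ with SAM against SAM, SAM against control and the SAM interaction fell that far. NAM against control gave 15 (no filter) and 17 (DESeq2). NAM on top of TGFβ gave 32 (no filter), 36 (DESeq2), 20 (without the 2 libraries that stand apart) and 0 (only compared groups). TGFβ with SAM against TGFβ with NAM gave 667 (only compared groups). With 1 library left out, counts ran from 3 to 14 for NAM on top of TGFβ and from 630 to 1068 for SAM on top of TGFβ. For TGFβ with SAM against TGFβ with NAM they ran from 696 to 1192. In these ranges the lowest counts moved that far and the highest did not. The SAM interaction ran from 131 to 237 with 1 library left out, within 1.5 times of the main count. Without SAM libraries 2 and 3, the remaining SAM library is assumed to vary like the other groups.

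Libraries with the same replicate number in different groups did not deviate together (r from -0.0997 to 0.0696 over 45 pairs). With the replicate block, 2570 genes were called for TGFβ against control, and 5 cathepsins in each of the 3 comparisons of TGFβ, with Ctsb added without a supplement. Depth limits Ctsw below TGFβ and the 4 cathepsins near 0 reads.

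The values that changed sign were these. Without SAM libraries 2 and 3, Ctsw gave 0.91 for SAM against control, and the SAM interactions were -0.81 for Ctsw, 0.028 for Ctsa and -0.054 for Ctsz. Without the 2 libraries that stand apart, NAM on top of TGFβ gave -0.12 for Ctsb and -0.00086 for Ctsl, TGFβ with SAM against TGFβ with NAM gave 0.032 for Ctsl, and the NAM interaction of Ctsz was -0.094. With 1 library left out, SAM against control ran from -0.076 to 0.012 for Ctsa, -0.061 to 0.029 for Ctsl and -2.16 to 0.45 for Ctsw. NAM on top of TGFβ ran from -0.054 to 0.086 for Ctsa, -0.12 to 0.17 for Ctsb and -0.0038 to 0.17 for Ctsl, and SAM on top of TGFβ from -0.0096 to 0.074 for Ctsl. TGFβ with SAM against TGFβ with NAM ran from -0.0100 to 0.071 for Ctsd and -0.14 to 0.022 for Ctsl. The NAM interaction ran from -0.13 to 0.13 for Ctsz and -0.27 to 0.018 for Ctsb, and the SAM interaction from -0.14 to 0.0018 for Ctsa, -0.011 to 0.10 for Ctsl, -0.37 to 2.25 for Ctsw and -0.13 to 0.18 for Ctsz. The cause was not tested.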
